A study of Mus musculus with 12 samples.

Results

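The response of resting macrophages to IFNγ and LPS, without any inhibitor, was described across all expressed genes, in 6 of the 12 RNA sequencing libraries of the study. Macrophages were grown from the bone marrow of young adult C57BL/6 mice with CSF-1 (20 ng/ml) for 7 days and were then kept in CSF-1 alone (M0, n = 3) or given IFNγ at 50 ng/ml together with LPS at 20 ng/ml and harvested 18 h later (IFNγ + LPS, n = 3). The sample titles give 18 h for the stimulated libraries and no time for M0. None of the 6 cultures received T863, a small-molecule inhibitor of the triglyceride-synthesizing enzyme DGAT1. The other 6 libraries, M0 and IFNγ + LPS with T863 (50 μM, DGAT1i), served to estimate the spread and for 1 comparison at the end. The labels number the replicates but do not say whether they came from separate mice or cultures, so that p-values measure the spread between these libraries, which may be technical. Such cells are a culture that depends on CSF-1 and is observed at 1 time point, so that early and transient changes were not measured.

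IFNγ binds a receptor of the chains IFNGR1 and IFNGR2, and the kinases JAK1 and JAK2 on it activate transcription factors of the STAT family. LPS, a component of the outer membrane of Gram-negative bacteria, is handed by CD14 to TLR4 and MD-2 (gene Ly96), and from there the adaptors MyD88 and TRIF (gene Ticam1) lead to NF-κB, to IRF3 and to the secretion of type I interferon, which acts back on the cells through its own receptor. Macrophages that receive both signals are known for killing of intracellular microbes, for nitric oxide and itaconate, for antigen presentation and for inflammatory cytokines.

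The 3 M0 libraries held 5787194, 6329927 and 6048197 reads on genes and the 3 IFNγ + LPS libraries held 5513081, 6573202 and 6150430. Reads were scaled by TMM, a method that sets the bulk of genes to an unchanged level, and are given as CPM, where 1 CPM was worth 4.75 to 7.51 reads in these libraries. Over all 12 libraries, those of the same group correlated with r of 0.988 to 0.992 on log2 CPM over the genes tested. Libraries of M0 correlated with those of IFNγ + LPS with r of 0.741 to 0.747. The 8 macrophage markers checked (Csf1r, Adgre1, Cd68, Fcgr1, Itgam, Lyz2, Spi1 and Mertk) were expressed in all 6 libraries, none below 65.4 CPM. Markers of other cells that a bone marrow culture could hold were low: the summed level of the lists for mast cells and basophils, fibroblasts and stroma, and erythroid cells and megakaryocytes stayed at or under 2.32 CPM in each library. B cell markers, mainly Ighm and Cd79b, summed to 22.1 to 23 CPM in M0 and to 1.05 to 2.62 CPM after stimulation, and neutrophil markers to 53.8 to 62.9 CPM and 196 to 215 CPM, where Csf3r rose and the granule genes Ltf and Ngp fell. T cell markers summed to 2.18 to 4 CPM and 3.58 to 6.66 CPM. Of the other lists, dendritic cell markers (Xcr1 and Clec9a) summed to 0.4 to 1.67 CPM in M0 and 12.2 to 17.3 CPM after stimulation, and endothelial markers (Pecam1 and Kdr) to 1.31 to 3.06 and 16.1 to 20.9 CPM. Their part in the results below was not tested. In bulk RNA, a change in the number of cells of a type and a change in RNA per cell cannot be told apart.

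IFNγ + LPS changed 8615 of 11760 genes tested (73.3%) at an adjusted p under 0.05, of which 4361 rose (37.1% of those tested) and 4254 fell (36.2%). Changes over 2-fold were called for 1765 genes upward (15.0%) and for 2017 downward (17.2%). Past 4-fold these numbers were 848 and 945, and past 16-fold 330 and 305. The genes that rose over 4-fold took between 2.85% and 2.89% of the reads of an M0 library and between 25.9% and 26.0% of those of an IFNγ + LPS library. The genes that fell over 4-fold took 5.58% to 5.88% and 0.477% to 0.496%. The balance of rises and falls depends on the scaling: by library size alone, which puts the median over all genes at a log2 fold change of -0.46 rather than 0.01, 2340 genes rose and 7002 fell, and with upper quartile factors (median -0.20) 3312 rose and 5357 fell. In every gene given below with a value as risen or fallen, the 3 libraries of one group lay above the 3 of the other, as they did in 8862 of the 11760 genes tested (73.3% were called), and among the tested genes given with values the groups overlapped only for Il10, Tpx2 and Stat5a. Some names stand for reads that could come from more than 1 gene: Cfb, Ctsd and Itgam overlap other gene models on the same strand, Cebpb, Ltc4s and Gpat3 overlap genes on the opposite strand, and Gapdh, Eef1a1, Rpl3, Prdx1, Pcna, Ass1, Isg15, Suclg2, mt-Co1 and mt-Nd2 have near-identical copies elsewhere in the annotation. Smaller overlaps with genes on the opposite strand were common among the genes named and reached 18.1% of exon bases, in Nfkb2.

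**Figure D1:**
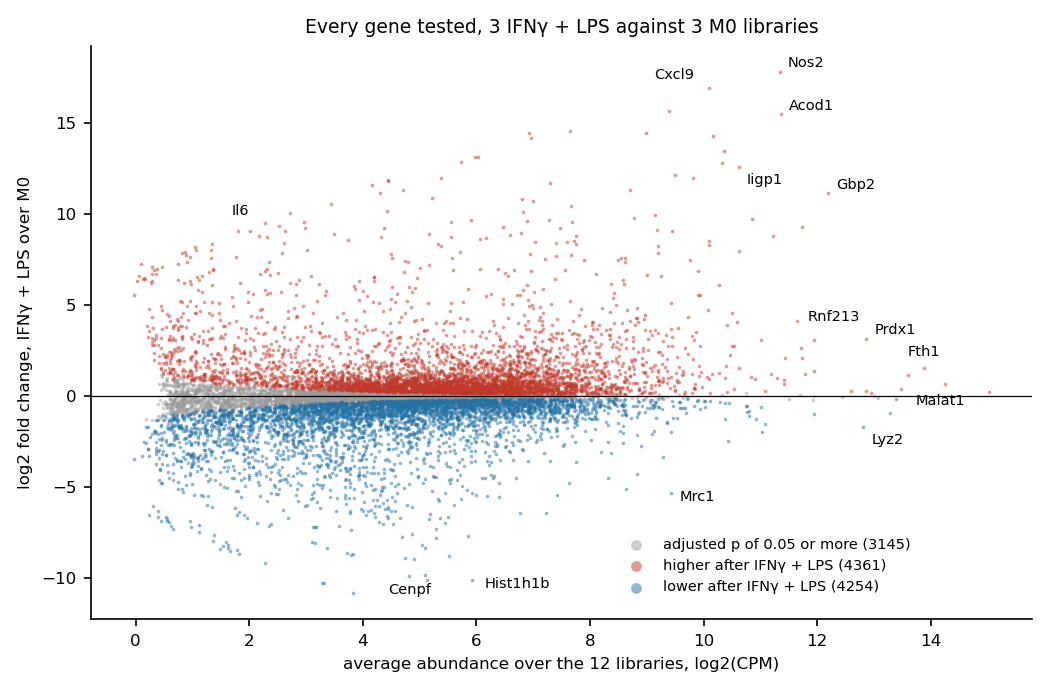
Each point is 1 of the 11760 genes tested, with its average abundance over the 12 libraries (log2 CPM) on the x axis and its log2 fold change of IFNγ + LPS over M0 on the y axis, in red where it was called higher (4361), in blue where it was called lower (4254) and in grey otherwise. The steepest rises were those of Nos2, Cxcl9 and others at the upper right, and the fitted fold changes of genes with 3 or fewer reads in a group, such as Nos2, depend on the prior count.

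Of the 2 receptor chains, Ifngr2 rose and Ifngr1 fell. Ifngr1 was counted at 158, 150 and 142 CPM in M0 and at 57.3, 50.8 and 50.6 CPM after IFNγ + LPS, a log2 fold change of -1.51. Ifngr2 stood at 107, 103 and 96.5 CPM and then at 238, 233 and 226 CPM (1.19). Neither pair of groups overlapped. Among the kinases, Jak2 rose most, from 39 ± 0.748 CPM (SD, n = 3) to 422 ± 1.07 CPM (log2 fold change 3.43 ± 0.06), and Jak1 and Tyk2 rose by 1.09 and 1.64. Of the transcription factors, Stat2, Stat3 and Irf9 rose, whereas Stat5a, which may share reads with Stat5b, did not pass the threshold (log2 fold change 0.16, or -0.31 with an adjusted p of 0.00741 from edgeR when scaled by library size). The log2 fold changes of Stat2 and Stat3 were 3.65 and 2.71, and that of Irf9, a factor of the type I interferon response, was 0.93. Of the inhibitors in the list, Socs1, Socs3 and Usp18 rose most. Socs1, which blocks JAK activity at the IFNγ receptor, had 0.436, 0.666 and 0.557 CPM in M0 and 458, 419 and 430 CPM after stimulation (9.56 ± 0.12). Socs3, which acts on receptors of the IL-6 family, rose from 0.987 ± 0.509 to 437 ± 6.88 CPM, and Usp18, which restrains the type I interferon receptor, from 6.5 ± 0.447 to 698 ± 37.1 CPM (SD, n = 3). In all, 21 of the 24 tested members of the list of interferon receptors and JAK-STAT genes rose and 2 fell, with a median log2 fold change of 1.75 against 0.01 over all genes.

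Interferon regulatory factors carry the signal to a second round of genes. Of 7 tested, 5 rose and 1 fell, against 37.1% and 36.2% of all genes tested. Irf1 (ENSMUSG00000018899.16, chromosome 11 from 53770014 to 53778374) was counted at 43.4, 44.3 and 38.7 CPM in M0 and at 1980, 1980 and 2000 CPM after IFNγ + LPS. This was a log2 fold change of 5.56 ± 0.07 (adjusted p = 3.84e-56, edgeR). Irf7, the factor that amplifies type I interferon, moved further, from 17.3, 18.5 and 16.6 CPM to 2000, 2120 and 2050 CPM (6.88 ± 0.08). Irf8, a lineage factor of monocytes, and Irf5 rose by 2.41 and 1.90 on the log2 scale. Irf4, which is known for its role in alternative activation, fell from 4.94, 4.13 and 2.51 CPM to 1.05, 0.54 and 0.375 CPM (-2.55 ± 0.43), values that rest on 83 and 10 reads.

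The receptor for LPS itself was slightly lower. Tlr4 stood at 140, 138 and 149 CPM in M0 and 119, 123 and 131 CPM after IFNγ + LPS, a log2 fold change of -0.20 ± 0.06, and Cd14 at 156, 187 and 162 and 104, 102 and 98 CPM (-0.73). The partner Ly96 and the adaptors Myd88 and Ticam1 rose by 1.05, 1.57 and 1.26. Among the receptors for nucleic acids in endosomes the changes went both ways. Tlr9, the sensor of CpG DNA, rose from 4.07, 3.06 and 3.06 CPM to 131, 127 and 117 CPM (5.20 ± 0.19) and Tlr3, the sensor of double-stranded RNA, by 1.96. Tlr7, Tlr8 and Tlr13, which sense single-stranded or ribosomal RNA, fell (log2 fold changes -0.89, -1.12 and -0.84). Irak3, an inhibitor of this pathway, rose by 1.62. Of 24 members tested, 17 rose and 6 fell (median 0.87), against 37.1% and 36.2% of all genes tested.

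NF-κB subunits and their inhibitors rose as a group, with 17 of 18 called higher and none lower (median 1.58). Inhibitors and subunits both moved by differing amounts, the inhibitors between 0.50 (Nfkbid, or 0.03 without passing the threshold when scaled by library size) and 3.89 (Nfkbie) and the subunits between 0.77 (Rel) and 2.60 (Nfkb2). Nfkbie rose from 11.8, 11.5 and 11 CPM to 167, 178 and 164 CPM (3.89 ± 0.09), Nfkbia, which encodes IκBα, by 3.48, Bcl3 by 3.42, and Tnfaip3, the ubiquitin-editing enzyme A20, by 3.23. The subunits of the non-canonical arm, Nfkb2 and Relb, rose by 2.60 and 2.30, Nfkb1 and Rela by 1.26 and 1.20, and Rel by 0.77.

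The highest median of all lists belonged to GTPases that attack the vacuoles of intracellular microbes. All 11 guanylate-binding protein genes tested rose over 2-fold, with a median log2 fold change of 11.62, or 9.14 with genes at 0 reads in M0 set to their lower bound. Gbp2 (ENSMUSG00000028270.12, chromosome 3 from 142620602 to 142638008) was counted at 4.94, 3.33 and 5.29 CPM in the M0 libraries and at 10000, 11100 and 10400 CPM after IFNγ + LPS. The log2 fold change was 11.18 ± 0.10 (adjusted p = 1.51e-50, edgeR). Per length, Gbp2 moved from rank 8788 to rank 6 among protein-coding genes, at 9830 ± 587 TPM (reads divided by exon length and scaled to the same sum in each library; SD, n = 3) against 5.58 ± 1.27 TPM in M0. Gbp5, which also acts on the inflammasome, had 8 reads over the 3 M0 libraries and then 2830, 2950 and 2740 CPM. Gbp4 had 3 reads in M0 and 3050, 3220 and 3290 CPM after stimulation, a ratio of 23000 with an exact 95% interval of 7860 to 111000 that covers counting error only. Gbp6, which shares sequence with Gbp10, had 2 reads and then 384 ± 9.97 CPM (SD, n = 3). Gbp2b had no read in M0 and 463, 455 and 449 CPM after stimulation, at least 3270-fold higher when the M0 group is set to a floor of 3 reads in all. The smallest rise was that of Gbp9, from 23.7 ± 2.45 to 686 ± 17.2 CPM (SD, n = 3; log2 fold change 4.86).

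The immunity-related GTPases, which load onto the same vacuoles, all rose as well (11 of 11, median 6.6). Iigp1 had the largest log2 fold change among genes of an average abundance of 4 log2 CPM or more with at least 10 reads in each group. It stood at 0.436, 0.4 and 0.557 CPM in M0 and at 2930, 3040 and 3060 CPM after IFNγ + LPS (12.60 ± 0.11). Tgtp1 and Tgtp2 share 99.6% or more of their longest transcript at 95% identity, and the counting could split reads between them: Tgtp2 rose from 1.15 ± 0.537 to 1170 ± 49.1 CPM, and Tgtp1 had no reads in M0 and 507 ± 5.07 CPM after stimulation (SD, n = 3). The regulators Irgm1, Irgm2 and Igtp, which hold the other GTPases inactive on the cell's own membranes, were present before stimulation at 11.1 to 39.8 CPM and rose by 5.15, 5.04 and 6.6.

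All 31 tested members of a list of genes known from type I interferon rose, all over 2-fold (median 4.29). Ifit2, which binds viral RNA, was counted at 11.2, 10.8 and 8.21 CPM in M0 and at 6160, 6740 and 6340 CPM after stimulation (9.31 ± 0.09). Rsad2 (viperin, which makes a chain-terminating nucleotide) and its neighbour Cmpk2 rose to 4940 ± 377 and 1950 ± 158 CPM from 11.2 ± 1.55 and 10.8 ± 2.02 CPM (SD, n = 3). Mx1, a GTPase against influenza virus, rose by 8.29, Oasl1 by 9.07, and the ubiquitin-like modifier Isg15 by 7.39. The smallest rise was that of Eif2ak2, the kinase PKR, from 76.1 ± 6.73 to 260 ± 5.78 CPM (1.77). The very large E3 ligase gene Rnf213 was already at 434, 408 and 306 CPM in M0 and reached 7060, 6540 and 6640 CPM. Of the p200 family, DNA sensors of the nucleus and cytosol, 12 of 12 rose (median 5.80), from Ifi207 at 1.12 to Ifi205 at 10.47.

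**Figure D2:**
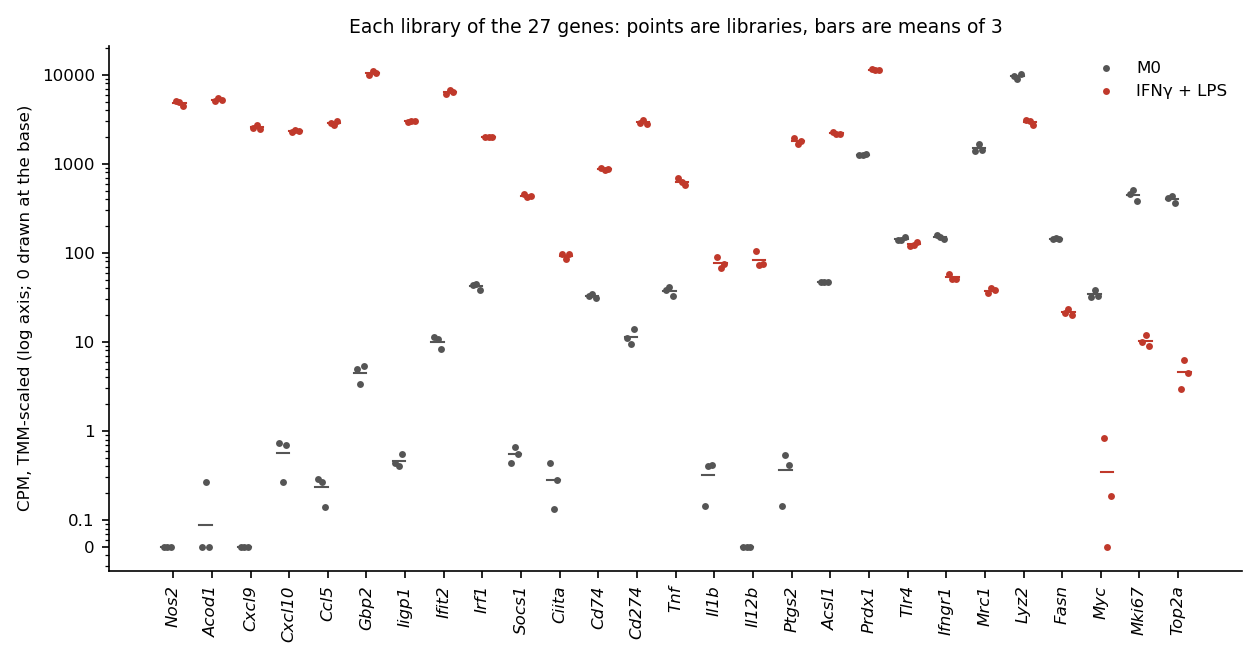
Each point is the level of a gene in 1 library on a log axis (CPM after TMM scaling, with 0 drawn at the base), in grey for M0 and in red for IFNγ + LPS, and short bars are means of 3 libraries. Within a group the 3 libraries lie close together, and no gene shown has overlapping groups; Tlr4, the nearest, ranges from 138 to 149 CPM in M0 and from 119 to 131 CPM after stimulation.

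To see what the genes that rose share in sequence, the bases upstream of gene starts were searched for 4 short motifs, on both strands and allowing overlaps. They were the core of the interferon-stimulated response element (ISRE; GAAA, any 2 bases, GAAA), which IRFs bind, the interferon γ-activated site (GAS element; TTCNNNGAA), an NF-κB site (GGGA, any 4 bases, CC) and, for comparison, a site of ETS factors (CCGGAAGT). RefSeq starts on GRCm38.p6 were matched to 8205 of the 11760 genes tested, within 1000 bases of the annotated gene start, and the 250 bases before the start were used. The ISRE core was present upstream of 2.89% of these genes, of 7.49% of the 1162 that rose over 2-fold and of 2.02% of the 1384 that fell over 2-fold. In steps of fold change, the share was 3.97% for genes that rose 2- to 4-fold, 7.85% for those that rose 4- to 16-fold and 17.9% for the 201 that rose over 16-fold. For the GAS element the shares in the same 3 steps were 5.24%, 8.76% and 11.9%, against 5.84% of all genes. The NF-κB letters were found upstream of 24% of the genes that rose over 2-fold, 23.7% of those that fell and 22.3% of all, without such a gradient. The ETS letters were less frequent among genes that changed over 2-fold in either direction. They were found in 8.38% of genes within 2-fold or not called. The share was 3.44% and 3.34% for genes that fell 2- to 4-fold and over 4-fold. In the 3 steps of genes that rose it was 5.71%, 1.21% and 0.995%. In all 32851 upstream sequences of the table, whether or not the gene was tested, the 4 motifs were present in 2.98%, 7.02%, 17.6% and 2.88%. These are counts of letters in a fixed window and not of bound sites.

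**Figure D3:**
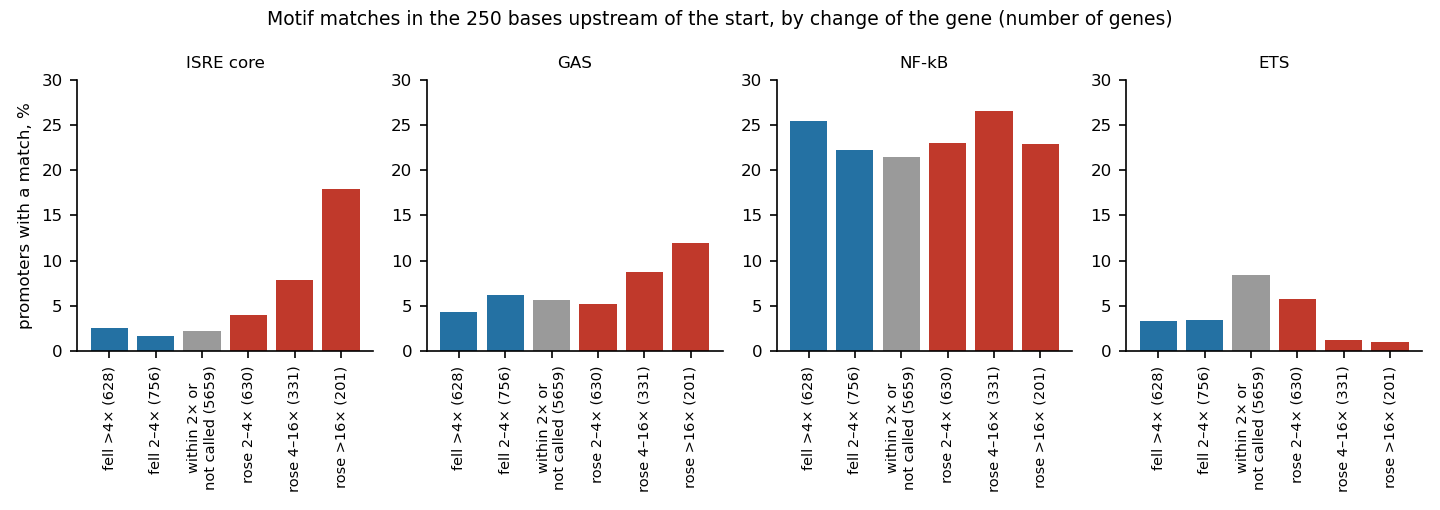
Bars give the share of genes (in %, from 0) with at least 1 match in the 250 bases upstream of the start, for 4 motifs and 6 classes of genes by their change under IFNγ + LPS, with the number of genes in parentheses. The ISRE core climbs from 2.16% of genes within 2-fold or not called to 17.9% of those that rose over 16-fold, and the NF-κB letters stay between 21.5% and 26.6% in every class.

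By list, the ISRE core was found upstream of 4 of 4 guanylate-binding protein genes with a matched start, 3 of 5 immunity-related GTPases, 7 of 9 genes of the p200 family and 11 of 24 type I interferon-stimulated genes. It was found for fewer genes of other lists that rose, with 3 of 16 for MHC class I and the immunoproteasome, 1 of 7 for MHC class II and 1 of 7 for IRFs, and for 4 of 23 cytosolic ribosomal protein genes, a list in which 35 of 38 genes fell. The NF-κB letters were found for 8 of 13 NF-κB subunits and inhibitors, 8 of 16 genes of MHC class I and the immunoproteasome and 3 of 5 CXC chemokines, and for 10 of 23 mitosis genes, a list that fell. The stretches that hold the matches are shown for 8 genes. They were chosen from the genes named for the size of their rise, and only where a match was present. The set therefore does not tell how often such genes hold a match. Up to 15 bases on either side of the matches are given, 5′ to 3′ on the strand of the gene. Capitals mark the bases of ISRE, GAS or NF-κB matches, from either strand.
Cxcl10, chr5:92348968-92349117 (minus strand), ending 79 bases before the start: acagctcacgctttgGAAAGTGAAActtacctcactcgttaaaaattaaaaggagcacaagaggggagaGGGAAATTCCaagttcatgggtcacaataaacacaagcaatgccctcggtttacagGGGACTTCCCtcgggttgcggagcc
Gbp2, chr3:142620589-142620628 (plus strand), ending 35 bases before the start: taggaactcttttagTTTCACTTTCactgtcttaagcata
Tgtp2, chr11:49064258-49064308 (minus strand), ending 46 bases before the start: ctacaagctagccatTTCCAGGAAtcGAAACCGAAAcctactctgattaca
C3, chr17:57228137-57228348 (minus strand), ending 1 base before the start: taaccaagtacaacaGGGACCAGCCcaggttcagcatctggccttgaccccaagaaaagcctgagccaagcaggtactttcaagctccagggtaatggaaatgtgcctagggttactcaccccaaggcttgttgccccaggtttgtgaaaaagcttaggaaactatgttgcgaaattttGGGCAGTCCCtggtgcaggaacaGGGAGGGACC
Socs1, chr16:10785589-10785634 (minus strand), ending 53 bases before the start: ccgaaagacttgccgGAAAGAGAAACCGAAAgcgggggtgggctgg
Ifit2, chr19:34550444-34550476 (plus strand), ending 218 bases before the start: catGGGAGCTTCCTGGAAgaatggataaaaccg
Acod1, chr14:103046942-103046981 (plus strand), ending 31 bases before the start: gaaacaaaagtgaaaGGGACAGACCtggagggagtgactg
Cxcl9, chr5:92328185-92328224 (minus strand), ending 106 bases before the start: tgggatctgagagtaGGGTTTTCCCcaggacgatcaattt
In this set, Cxcl10 holds an ISRE core and NF-κB letters, Socs1 holds ISRE cores that overlap, Tgtp2 holds a GAS element next to an ISRE core, and Gbp2 holds a single ISRE core on the opposite strand. The stretches of C3, Acod1 and Cxcl9 hold NF-κB letters alone, and that of Ifit2 holds GAS and NF-κB letters that overlap.

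Some of the genes that rose were neighbours. There were 22 runs of at least 4 consecutive tested genes that all rose over 4-fold, with 127 genes in all, where 7.21% of the placed genes rose that far. The guanylate-binding proteins formed a run of 5 on chromosome 3 (142493978 to 142638008, Gbp5 to Gbp2) and one of 6 on chromosome 5 (105014150 to 105346472, Gbp8 to Gbp11). The Ifit genes formed a run of 6 on chromosome 19 (34550694 to 34650009), and the p200 genes runs of 5 and 6 on chromosome 1 (173468485 to 173698395 and 173747293 to 174031810). The longest, of 11 genes, lay in the major histocompatibility complex on chromosome 17 (34092340 to 34316674) and joined class II genes with the peptide transporter genes Tap1 and Tap2 and the immunoproteasome genes Psmb8 and Psmb9. Ccl2, Ccl7, Ccl12 and Ccl8 formed a run on chromosome 11 (82035571 to 82116799), and the checkpoint ligands Cd274 and Pdcd1lg2 lay in one on chromosome 19 (29367455 to 29606829). Many of these families arose by duplication, and reads of near-identical copies could be split between them. There were 4 such runs of genes that fell, looked for after the rises had been seen: 3 on chromosome 13, with 16, 16 and 8 genes and almost all replication-dependent histones, and 1 on chromosome 19 with the fatty acid desaturases Fads1, Fads2 and Fads3.

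**Figure D4:**
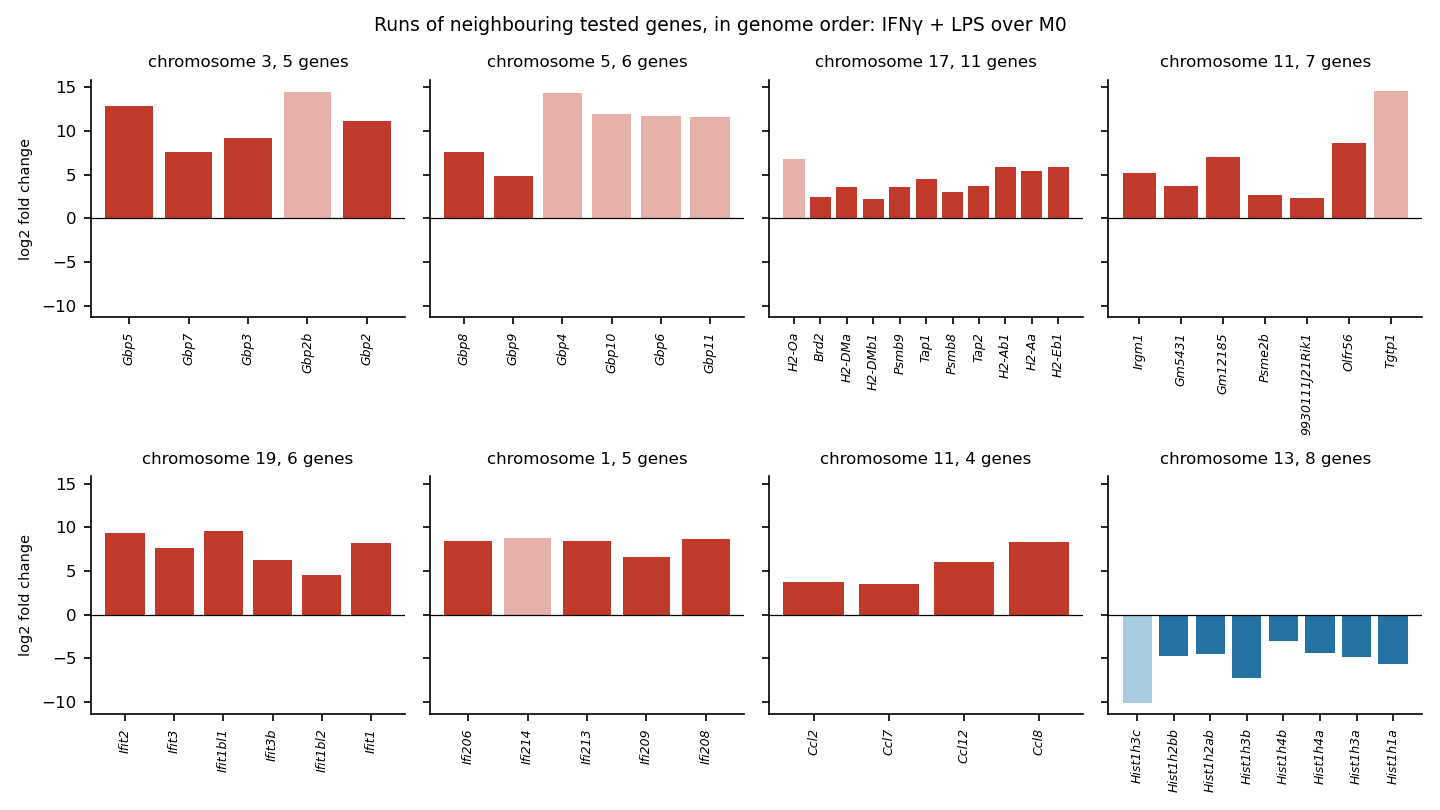
Bars give the log2 fold change (IFNγ + LPS over M0) of each gene in 8 runs of neighbouring tested genes, in genome order; pale bars mark genes with 3 or fewer reads in a group, whose fitted value depends on the prior count. The 7 red runs rose throughout, and the blue run of histone genes on chromosome 13 fell throughout.

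Genes of antigen presentation rose in both classes. All 21 tested genes of MHC class I and the immunoproteasome rose over 2-fold, with a median of 3.55. B2m, the invariant chain of class I, stood at 940, 986 and 1010 CPM in M0 and at 5830, 6450 and 5870 CPM after stimulation (2.63 ± 0.06). Per length it went from rank 14 to rank 1 among protein-coding genes, at 16500 ± 1050 TPM (SD, n = 3). The class I heavy chains H2-K1 and H2-D1 rose by 3.07 and 2.08, the transporter Tap1 by 4.48, and the immunoproteasome subunits Psmb8, Psmb9 and Psmb10 by 2.99, 3.55 and 3.22. Nlrc5, the transactivator of class I, rose from 48.9 ± 6.57 to 793 ± 16.2 CPM (SD, n = 3). The non-classical H2-Q6 rose most (7.69), though its reads may be shared with H2-Q7 and H2-Q4.

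For class II, 11 of 12 genes rose (median 4.15, or 3.77 with bounds). Ciita, the master transactivator of class II, had 0.436, 0.133 and 0.278 CPM in M0 and 98.1, 84.2 and 97.4 CPM after IFNγ + LPS (8.28 ± 0.20). The chains of the class II molecule rose from low levels: H2-Aa rose from 4.8 ± 1.2 to 200 ± 18.1 CPM, H2-Ab1 from 4.39 ± 1.18 to 250 ± 14.2 CPM and H2-Eb1 from 2.25 ± 0.694 to 137 ± 10 CPM (SD, n = 3). Cd74, the invariant chain that guards the class II groove, was counted at 33, 34.6 and 31.5 and then at 900, 846 and 869 CPM. Ctss, the protease that degrades Cd74, was abundant throughout and rose by 0.70.

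Of 13 co-stimulatory and checkpoint genes tested, 8 rose and 2 fell, against 37.1% and 36.2% of all genes tested. Cd86 went from 2.03, 2.4 and 1.67 CPM to 430, 461 and 449 CPM (7.76 ± 0.11), whereas Cd80, the other ligand of CD28, went only from 5.09 ± 0.745 to 13 ± 1.55 CPM (1.35). Cd40 rose by 6.18. The largest fitted rise was that of the inhibitory ligand Cd274 (PD-L1), from 11, 9.46 and 13.9 CPM to 2870, 3140 and 2820 CPM (8.0 ± 0.10). Pdcd1lg2 (PD-L2) and Tnfsf4 (OX40L) had no read in M0 and reached 3.16, 5.22 and 3.75 and 2.74, 1.8 and 3.75 CPM, at least 29.4-fold and 19.8-fold higher. Vsir (VISTA) and Cd276 (B7-H3) fell, from 401 ± 22.6 to 76 ± 9.61 CPM and from 5.76 ± 1.63 to 0.948 ± 0.342 CPM.

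Of 7 CXC chemokines tested, 5 rose and 2 fell, and of 19 CC chemokines and chemokine receptors, 11 rose and 8 fell. Over all genes tested, 37.1% rose and 36.2% fell. The 3 ligands of CXCR3, which draw activated T cells, all rose. Cxcl9 (ENSMUSG00000029417.9, chromosome 5 from 92321347 to 92328079) had no read in any M0 library and 2540, 2760 and 2450 CPM after stimulation, at least 18600-fold higher. Cxcl10 went from 0.726, 0.266 and 0.696 CPM to 2290, 2390 and 2340 CPM (11.99 ± 0.11). Cxcl11, with no read in M0 and 182 ± 5.68 CPM after stimulation (SD, n = 3), was at least 1310-fold higher; 41.7% of its exon bases overlap a gene on the opposite strand. Ccl5 (RANTES) rose from 0.291, 0.266 and 0.139 CPM to 2840, 2760 and 3020 CPM (13.48 ± 0.12) and reached rank 9 per length among protein-coding genes. The monocyte attractants Ccl2, Ccl7, Ccl12 and Ccl8 rose by 3.71, 3.46, 6.00 and 8.37. Of these, Ccl12 varied between the M0 libraries, with 0, 18 and 8 reads. The neutrophil attractant Cxcl2 rose to only 6.5 ± 0.611 CPM (SD, n = 3), and Cxcl1 had 4 reads in M0 and 2 after stimulation and was not tested. Ccl6, Ccl9 and Pf4 (CXCL4), expressed at rest, fell (log2 fold changes -1.21, -0.98 and -1.56). Several receptors fell as well: Cx3cr1, the fractalkine receptor, fell from 46.1, 45.1 and 44.6 CPM to 1.05, 0.36 and 0.375 CPM (-6.25 ± 0.22), Cxcr4 fell by 3.16 and Ccr2 fell by 1.40. Ccr7, which guides cells to lymph nodes, was an exception, with no read in M0 and 2.53, 5.04 and 2.44 CPM after stimulation.

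Of 20 cytokines and antagonists tested, 18 rose and 1 fell (median 5.93, or 4.97 with bounds). Tnf was counted at 38.4, 40.9 and 32.9 CPM in M0 and at 689, 619 and 575 CPM after IFNγ + LPS (4.07 ± 0.09). Il12b, the p40 chain of IL-12 and IL-23, had no read in M0 and 104, 72.5 and 75.7 CPM after stimulation, at least 597-fold higher. Il1a and Il1b rose from 0.502 ± 0.265 and 0.321 ± 0.152 to 92.1 ± 10.4 and 77.4 ± 10.9 CPM (SD, n = 3), and Il6 reached 16.2, 14.4 and 14.2 CPM from no read. Antagonists rose with the cytokines they oppose. Il1rn, the IL-1 receptor antagonist, went from 32.5 ± 1.67 to 2280 ± 233 CPM (SD, n = 3), and Il18bp, the IL-18 binding protein, from 3.34, 4.13 and 2.51 CPM to 350, 365 and 520 CPM, with replicate 3 above the other 2. The log2 fold change of Il27 was 6.49 and that of Il15 was 3.30. Il10 did not pass the threshold, at 3.05, 3.2 and 2.78 CPM in M0 and 4.21, 2.52 and 2.81 CPM after stimulation (log2 fold change 0.06 ± 0.30, adjusted p = 0.869, edgeR), and Tgfb1 fell by 0.53. Ifnb1 was too scarce to be tested, with no read in M0 and 7, 9 and 3 reads in the IFNγ + LPS libraries.

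In the inflammasome list, 12 of 15 genes rose and 2 fell, against 37.1% and 36.2% of all genes tested. Among proteases, Casp4 (caspase-11, the sensor of cytosolic LPS) rose from 14.4 ± 1.1 to 234 ± 18.1 CPM and Casp1 from 78.2 ± 6.89 to 570 ± 21.6 CPM (SD, n = 3), and the pore-forming Gsdmd rose by 2.28. Mefv (pyrin) rose most, by 5.78, from 15 reads in M0, followed by Nod1 (5.26). Nlrp3 rose by 1.02, and the adaptor Pycard (ASC) fell from 69.3, 67.5 and 58.8 CPM to 38.3, 35.3 and 33 CPM (-0.88 ± 0.09).

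The enzymes that make nitric oxide and itaconate went from next to no reads to a high level. Nos2 (ENSMUSG00000020826.7, chromosome 11 from 78920787 to 78960254), which makes nitric oxide from arginine, had no read in the 3 M0 libraries and 5010, 4930 and 4410 CPM after IFNγ + LPS, at least 34400-fold higher. Acod1 (ENSMUSG00000022126.6, chromosome 14 from 103046977 to 103056573), which makes itaconate from cis-aconitate, had 2 reads in M0 and 5140, 5470 and 5210 CPM after stimulation, a ratio of 57000 with a counting interval of 15800 to 470000. Slc7a2, a transporter of arginine, went from 10, 8.39 and 10.4 CPM to 890, 767 and 780 CPM (6.40 ± 0.09), and Ass1, which recycles citrulline, rose by 6.92. Gch1, of cofactor synthesis for Nos2, rose by 1.83, Sod2, the superoxide dismutase of mitochondria, by 4.24, and Cybb, the catalytic subunit of the phagocyte oxidase, from 470 ± 22.9 to 2270 ± 129 CPM (SD, n = 3). Of 17 genes of this list, 13 rose and 2 fell, against 37.1% and 36.2% of all genes tested.

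A list of the TCA cycle, which also holds Acod1 and genes of pyruvate entry and citrate use, had 16 of 29 genes higher and 11 lower, against 37.1% and 36.2% of all genes tested, with a median of 0.21 that turns to -0.26 with scaling by library size. Among those that fell were 4 with a change over 2-fold. Idh2, the mitochondrial NADP-dependent isocitrate dehydrogenase, fell from 77.3, 79.4 and 73 CPM to 9.05, 10.4 and 9.55 CPM (-2.98 ± 0.10), and Idh1, its cytosolic counterpart, fell by 2.12. Suclg2, a subunit of succinyl-CoA synthetase, fell by 2.14 and Fh1, the fumarase, fell by 1.11 on the log2 scale. In a list of glycolysis that also holds glucose and lactate transporters and hypoxia genes such as Hif1a, 21 of 26 genes rose (median 1.10), 18 of them over 2-fold. Pfkfb3, which makes the activator of phosphofructokinase, rose from 25.9, 29 and 27.3 CPM to 469, 495 and 445 CPM (4.10 ± 0.07). Hif1a, Hk3, Pfkp, the lactate exporter Slc16a3 and the glucose transporter Slc2a1 rose by 2.85, 2.74, 2.32, 2.31 and 2.06, and Gapdh, at 659 ± 30.5 CPM in M0, by 1.05. Slc2a3 and Aldoc fell (log2 fold changes -1.71 and -1.87).

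Of 18 prostaglandin and leukotriene genes, 11 were higher and 7 lower, against 37.1% and 36.2% of all genes tested (median 0.32, or -0.15 with scaling by library size). On the path to prostaglandin E2, Pla2g4a, which frees arachidonic acid, rose from 38.4 ± 2.84 to 335 ± 9.48 CPM (SD, n = 3). Ptgs2, the inducible cyclooxygenase COX-2, went from 0.145, 0.533 and 0.418 CPM to 1930, 1670 and 1800 CPM (12.17 ± 0.13), and Ptges, the terminal synthase, by 6.57. The constitutive cyclooxygenase Ptgs1 fell from 4.21, 5.19 and 3.2 CPM to 0.211, 0.9 and 0.187 CPM (-3.18 ± 0.47). Hpgd, which degrades prostaglandins, fell by 4.86, Hpgds, the synthase of prostaglandin D2, fell by 1.37, and Ltc4s and Alox5ap, of leukotriene synthesis, fell by 2.92 and 1.20.

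Of 30 genes of triglyceride synthesis and lipid droplets, the subject of the study, 13 were higher, 11 lower and 6 short of the threshold, shares close to the 37.1% higher and 36.2% lower of all genes tested (median 0.07, or -0.40 with scaling by library size and -0.14 with upper quartile factors). Acsl1, which activates long-chain fatty acids, rose from 46.5, 47 and 46.5 CPM to 2280, 2170 and 2140 CPM (5.56 ± 0.07), while Acsl3, which does so at lipid droplets, fell from 26.9 ± 1.79 to 3.32 ± 1.41 CPM (-2.98). Gpat3, of the first step of glycerolipid synthesis, rose from 0.726, 1.2 and 0.975 CPM to 3.58, 5.22 and 4.12 CPM (2.13 ± 0.34). Lpin1, the phosphatase that makes diacylglycerol, fell from 45.5, 38.4 and 40 CPM to 1.89, 4.5 and 2.81 CPM (-3.71 ± 0.17). Dgat1, the target of T863, was at 10, 14.4 and 13.8 CPM in M0 and 17.3, 19.6 and 19.3 CPM after stimulation (0.55 ± 0.14, adjusted p = 0.000291, edgeR, and 0.09 without passing the threshold when scaled by library size). Dgat2 had 5 reads in M0 and 23 after stimulation and was not tested. Hilpda, an inhibitor of lipolysis on droplets, rose by 2.95. Lpl and Cd36, of fatty acid uptake, fell from 3440 ± 53.7 and 2300 ± 176 to 1210 ± 70 and 978 ± 56.6 CPM (SD, n = 3), and Fabp4 and its regulator Pparg fell (log2 fold changes -2.05 and -2.20).

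In the list of cholesterol and fatty acid synthesis, which also holds regulators and exporters, the mRNA of 27 of 35 genes was lower and of 5 higher (median -0.81), against 36.2% and 37.1% of all genes tested. Sqle, the squalene epoxidase, fell by 3.67, and the master regulator Srebf2 fell by 1.64. Fasn, the fatty acid synthase, fell from 143, 148 and 143 CPM to 21.3, 23.6 and 19.9 CPM (-2.74 ± 0.08), the elongase Elovl6 fell by 3.30, and the desaturase Fads2 from 124 reads to 1. Among the members that rose, Ch25h, the cholesterol 25-hydroxylase, rose by 5.14, Nr1h3, the liver X receptor α, by 2.79 and the exporter Abcg1 by 1.84, whereas the exporter Abca1 fell by 0.77. In fatty acid oxidation 6 of 23 genes rose and 11 fell (median -0.18), against 37.1% and 36.2% of all genes tested, with Ppargc1b at 2.86 as the largest rise.

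Of 40 nuclear genes of the respiratory chain, 24 rose and 4 fell, against 37.1% and 36.2% of all genes tested. The changes were mostly small (median 0.29). With scaling by library size the median turned to -0.18, with 7 higher and 21 lower. Cycs (cytochrome c) stood out at 34.1 ± 3.72 and 123 ± 12.5 CPM (SD, n = 3; log2 fold change 1.85), though part of its transcript has a copy. Of 13 RNAs of the mitochondrial genome, 6 had too few reads to be tested, among them mt-Co2 with 8 reads in M0 and 9 after stimulation, where mt-Co1 had 108395 and 95457. Of the 7 tested, 4 fell, with mt-Cytb and mt-Nd2 at log2 fold changes of -0.61 and -0.69, and mt-Co1 rose by 0.28 (or -0.19 with scaling by library size). Cytosolic ribosomal proteins fell in near unison, 35 of 38 lower and 1 higher (median -0.58). The largest fall was that of Rpl3, from 409, 447 and 407 CPM to 126, 123 and 113 CPM (-1.80 ± 0.06), and the exception was Rps24, at 324 ± 21.4 and 462 ± 8.18 CPM (log2 fold change 0.51, or 0.04 without passing the threshold when scaled by library size).

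Genes of proliferation fell, and the mitosis list had the lowest median of all lists. Macrophages grown in CSF-1 divide, and all genes of both proliferation lists passed the filter on low counts. After IFNγ + LPS, 31 of 32 mitosis genes were lower and none higher (median -5.36), and 33 of 36 genes of DNA replication were lower (median -3.24). Mki67, the proliferation marker Ki-67, fell from 457, 508 and 383 CPM to 9.9, 11.9 and 8.99 CPM (-5.45 ± 0.11). Top2a (ENSMUSG00000020914.17, chromosome 11 from 98992943 to 99024189), the topoisomerase of chromosome segregation, fell from 409, 438 and 366 CPM to 2.95, 6.3 and 4.5 CPM (-6.43 ± 0.13, adjusted p = 1.3e-24, edgeR). Ccna2, the cyclin of S and G2 phase, fell from 122 ± 10.3 CPM to 4 reads over 3 libraries, and Cenpf, of the kinetochore, from 1684 reads to 1. Rrm2, of deoxynucleotide synthesis, fell by 6.97, Tk1 fell by 5.95, and Mcm6, a subunit of the replicative helicase, fell by 3.57. Pcna, which also serves DNA repair, was one of the least changed (-0.90), and Ccne1, the cyclin of S phase entry, rose from 26.2, 20.9 and 20.5 CPM to 64.6, 58.7 and 75.5 CPM (1.56 ± 0.10). Tpx2 was the mitosis gene that did not pass the threshold (log2 fold change 0.07, or -0.40 with an adjusted p of 0.000235 from edgeR when scaled by library size), at 81.8, 93.4 and 75.7 CPM in M0 and 92.9, 94.9 and 76.2 CPM after stimulation.

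Replication-dependent histones were among the genes with the steepest falls. Hist1h2bn, Hist1h2ak and Hist1h2bk had log2 fold changes of -6.64, -6.49 and -6.19, as did an entry without a symbol in the annotation, ENSMUSG00000096807.1 (-6.74). Hist1h3b fell from 99.1, 113 and 93.6 CPM to 0.211, 0.54 and 1.12 CPM (-7.27 ± 0.19), Hist1h3c from 1983 reads to 1, and the linker histone Hist1h1b from 3525 reads to 2 (ratio 1280, counting interval 353 to 10600). Their sequences are close enough that reads may be split between them, so that the values of single members are uncertain. The libraries were made from polyadenylated RNA, and the share of histone RNA that they captured was not measured. Growth control showed opposite changes of related genes. Myc fell from 32.3, 38.2 and 32.6 CPM to 0.842, 0 and 0.187 CPM (-6.66 ± 0.27), and its paralog Mycl rose from 0.291, 0.266 and 0.139 CPM to 15.6, 19.8 and 19.9 CPM (6.20 ± 0.33). Cdkn1a, the CDK inhibitor p21, rose from 148 ± 5.63 to 454 ± 12.1 CPM, while Cdkn2c (p18) fell with the proliferation genes, from 58 ± 4.2 to 1.2 ± 0.315 CPM (SD, n = 3). Ccnd2 rose by 2.73.

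Of 24 lineage genes of macrophages, 12 rose and 11 fell, against 37.1% and 36.2% of all genes tested (median 0.20, or -0.27 with scaling by library size and -0.01 with upper quartile factors). Csf1r, the receptor for the growth factor in the medium, went from 1270, 1270 and 1240 CPM to 873, 835 and 834 CPM (-0.57 ± 0.05), and Adgre1 (F4/80) from 1320 ± 19.2 to 2710 ± 189 CPM (SD, n = 3). Lyz2, the lysozyme, was the most abundant protein-coding mRNA per length in M0 and fell from 9670, 9010 and 10200 CPM to 3090, 3050 and 2730 CPM (-1.71 ± 0.07), to rank 12; its reads may be shared with Lyz1. Fcgr1, the high-affinity IgG receptor, rose by 3.23, Mertk, a receptor for apoptotic cells, by 2.69 and Spi1 (PU.1) by 1.31. Klf4 and Cebpb rose by 4.0 and 3.43. Marco, a scavenger receptor, had 1 read in M0 and 142, 78.5 and 167 CPM after stimulation, and Cd163 fell from 82 reads to 1.

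Markers of alternative activation were lower in 12 of 16 genes and higher in 3 (median -2.58). Mrc1, the mannose receptor, fell from 1390, 1690 and 1420 CPM to 35.2, 40.1 and 37.8 CPM (-5.31 ± 0.10), Gas6, a ligand of MERTK, fell by 4.49, Igf1 fell by 3.13, Trem2 fell by 2.71 and Stab1 fell by 2.45. Tgm2, a transglutaminase often listed with IL-4, was one of the 3 and rose from 85.4, 75.8 and 94.8 CPM to 2280, 2200 and 2380 CPM (4.75 ± 0.07); 21.8% of its exon bases overlap genes on the opposite strand. In complement, C3, the central component, rose from 4.79, 4.79 and 3.9 CPM to 4000, 3970 and 3760 CPM (9.76 ± 0.09), Cfb, of the alternative pathway, had no read in M0 and 58.7, 37.3 and 46.5 CPM after stimulation, and C5ar1 and Cd93 fell (log2 fold changes -3.56 and -4.28). Clec4e (Mincle), a receptor for mycobacterial glycolipid, rose by 7.48. Of 26 integrin and matrix genes, 13 rose and 12 fell, against 37.1% and 36.2% of all genes tested (median 0.08, or -0.39 and -0.13 with scaling by library size and upper quartile factors): Itgal (the α chain of LFA-1) and the membrane protease Mmp14 rose by 5.27 and 7.02, and Itga6 and the urokinase Plau fell (log2 fold changes -4.76 and -3.33). The acute-phase gene Saa3 and the protease inhibitors Serpina3g and Serpina3f were at 0, 1 and 0 reads in M0 and at 1080 ± 150, 1530 ± 58.5 and 388 ± 10.6 CPM after stimulation (SD, n = 3). Reads of Serpina3g and Serpina3f may be shared with Serpina3i and between them, so that their values are uncertain.

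In reads, not per length, the largest gain was that of Fth1, the ferritin heavy chain, from 6770, 6380 and 6610 CPM to 19000, 19400 and 18400 CPM (1.53 ± 0.05), followed by Gbp2, Prdx1, Psap and the nuclear RNA Malat1 (from 12900 ± 588 to 20800 ± 853 CPM; SD, n = 3). Prdx1, a peroxidase of the NRF2 program, rose from 1240, 1240 and 1300 CPM to 11500, 11200 and 11300 CPM (3.17 ± 0.06) and Hmox1, heme oxygenase 1, from 414 ± 28.6 to 3470 ± 236 CPM (SD, n = 3). The cystine importer Slc7a11 rose by 5.63, whereas Tfrc, the importer of transferrin iron, fell from 267 ± 21.7 to 70.4 ± 9.44 CPM. Of 25 stress, NRF2 and iron genes, 19 rose and 4 fell (median 1.84). The largest losses were those of Lyz2, Ctsd, Lrp1, a scavenger receptor (log2 fold change -1.99), Eef1a1, a translation factor (-0.98), and Lpl. Of 26 lysosomal genes, 14 were higher and 10 lower, against 37.1% and 36.2% of all genes tested (median 0.28, or -0.19 with scaling by library size), with the cysteine proteases Ctsc and Ctsh up by 3.93 and 3.59, Psap, the saposin precursor, up by 1.19, and Ctsd lower (log2 fold change -0.90). Of 23 immediate early factors and MAPK phosphatases, 12 rose and 10 fell, against 37.1% and 36.2% of all genes tested: Batf2, a partner of IRF1, went from 2.68 ± 0.332 to 314 ± 20.7 CPM, and Fosb and Egr1 fell, from 47 and 232 reads to none and 24.

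**Figure D5:**
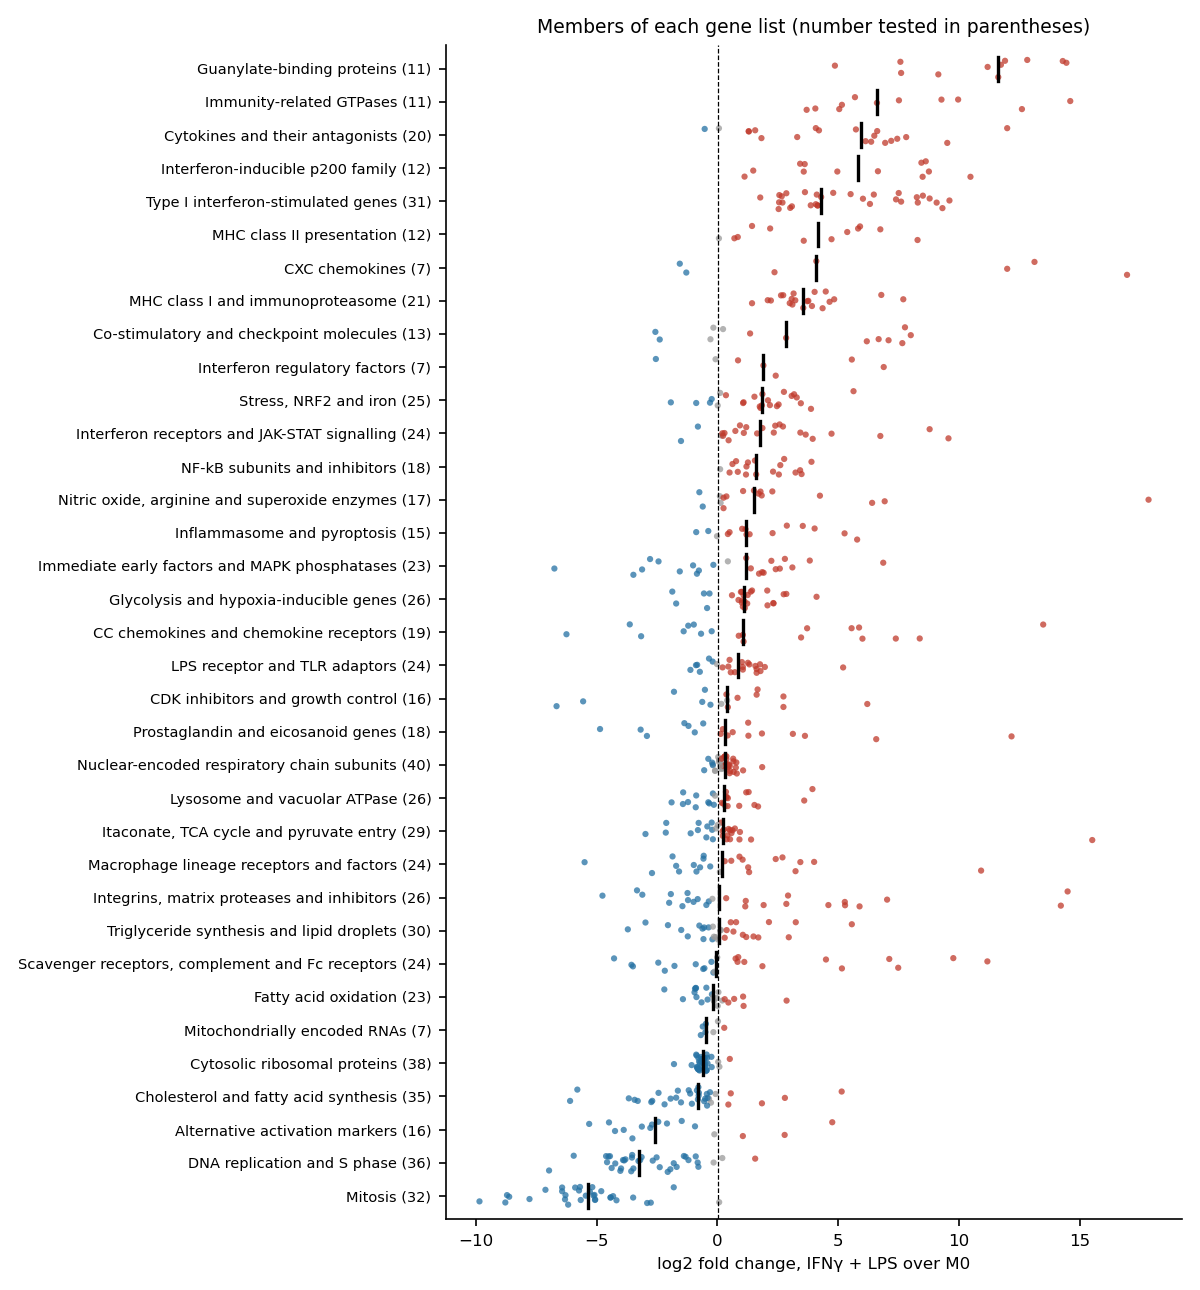
Each point is a tested member of a gene list, with its log2 fold change of IFNγ + LPS over M0 on the x axis, in red where called higher, in blue where called lower and in grey otherwise; black ticks are medians and the dashed line is the median of all genes (0.01). Fitted values of genes with 3 or fewer reads in a group depend on the prior count. Interferon-induced families lie far to the right, proliferation and sterol synthesis to the left, and TCA cycle, triglyceride and lysosome genes spread to both sides.

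Among the genes named for size alone, several have less settled roles in macrophages. Clic5, of a family of chloride channel-like proteins, was counted at 1.02, 0.4 and 0 CPM in M0 and at 1250, 1310 and 1160 CPM after stimulation (11.33 ± 0.17). AW112010, annotated as a long non-coding RNA, rose from 0.436, 1.2 and 1.67 CPM to 1000, 1020 and 1010 CPM (9.80 ± 0.11), and Ms4a4c, a tetraspanning membrane protein in a run of 8 rising genes on chromosome 19, from 10 reads to 403 ± 26.4 CPM. On the other side, Arap3, a regulator of small GTPases, fell by 6.67, Igfbp4, which binds insulin-like growth factors, fell by 6.43 and the condensin subunit Ncaph fell by 6.29. Slco2b1, an organic anion transporter, and Rasgrp3, an exchange factor for RAS, fell from 1624 and 1564 reads to 1 and 2. In all, 115 genes called had at most 3 reads over the M0 libraries, 54 of them none, and 142 had at most 3 reads after stimulation, 29 of them none.

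The same stimulation was measured with T863 on both sides, in 6 other libraries with their own controls. The descriptions of 2 of the 3 M0 libraries with inhibitor name compounds numbered T864 and T865 in place of T863, whereas their titles give DGAT1i as for the others, and they were kept in that group. There, 8303 genes were called, of which 7103 were also called without T863 in the same direction and 110 in the opposite direction. The difference between both responses passed the threshold for 2171 of 11760 genes (18.5%), and was over 2-fold for 388 of these. Among genes past this threshold with an average abundance of 4 log2 CPM or more, the 5 with the largest difference (Rasgrp3, Hmmr, Hist1h3i, Hist1h3f and Kctd12b) all fell by less with T863 than without. Some genes with few or no reads in a group had fitted differences as large that did not pass, such as Saa3 with no read in M0 (-3.77, adjusted p = 0.113, edgeR). Hmmr, a spindle protein, fell from 49.8, 48.3 and 45.4 CPM to 0.421, 0.9 and 0.749 CPM without T863 (log2 fold change -6.05) and had a log2 fold change of -3.01 with it. Among genes described above, Acod1, Ccl5 and Ptges rose by less with T863, with differences of log2 fold change of -2.31, -1.97 and -1.87 that rest on 2, 5 and 8 reads in M0 without T863, and Socs3 rose by more (1.67). Nos2 and Gbp2, in contrast, had differences of 0.23 (adjusted p = 1) and 0.16 (adjusted p = 0.689, edgeR), neither of them past the threshold, which does not show that they are equal.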

How the data were processed

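Libraries were made from polyadenylated RNA and sequenced on an Illumina HiSeq instrument. The labels and the study's methods name different library kits, so that strandedness was not settled here. The authors deposited raw read counts per gene in 1 table of 47937 genes and 12 libraries, without molecular identifiers, of which 25746 had no read in any library. The submitters' processing notes name GRCm38 and DESeq2, whereas the aligner and the annotation were not given in the sources used here. Gene names, positions and exon lengths came from GENCODE M21, which matched 39192 identifiers with their version and 47310 without it, and left 627 unmatched.

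For the analysis of counts (edgeR 4.0.16 under R 4.3.3), genes were kept by filterByExpr (11760 tested) and scaled by TMM, whose factors were 1.19 for M0 and 0.86 for IFNγ + LPS on average. All 12 libraries entered 1 quasi-likelihood model with a mean for each of the 4 groups, which share an estimate of the spread (common biological coefficient of variation 0.0507), and p-values were adjusted over all genes tested by Benjamini-Hochberg with a threshold of 0.05. Errors of log2 fold changes are standard errors derived from the quasi-likelihood F. TPM were computed from the counts and exon lengths. The fit was tested on simulated data in which few genes changed, equally up and down. Scaling under a change of most genes was not tested there. No pair of libraries agreed within sampling noise (chi-square per gene of 1.93 or more within groups).

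Genes were named by rule: the 10 largest rises and falls among genes with an average of at least 4 log2 CPM and at least 10 reads in each group, the 10 and 5 most abundant genes with at most 3 reads in M0 or after stimulation, the 5 largest gains and losses of CPM, the 5 largest differences with T863 among genes past its threshold with that average, members of the 43 gene lists and genes in runs. Among members of a list, receptors, factors and those with the largest changes came first, and others were picked for their role. Some genes are not reported here. The members and lists were chosen with earlier results of these data known. RefSeq upstream sequences (GRCm38.p6) were taken where the start lay within 1000 bases of the annotated one. Transcripts were compared by BLAST 2.17.0, and genes that share at least 20% of their longest transcript with another at 95% identity, or have at least that share of exon bases in overlaps with other genes, are named as uncertain. Alternatives were other scaling factors, other filters, DESeq2 1.42.0, the 6 libraries alone, the replicate number as a block, stricter thresholds and each library left out in turn.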

Additional observations from a re-analysis of the deposited data

Results flagged for a closer look

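The responses to IFNγ + LPS with and without T863 come from separate libraries, each with its own M0 group, and the difference of the log2 fold changes (with T863 minus without) was tested for each gene as an interaction in edgeR's quasi-likelihood model with Benjamini-Hochberg adjustment. Of the 250 genes described, the 23 given here passed the threshold with a difference of over 1 on the log2 scale.

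Of the genes that fell with IFNγ + LPS, 13 had a higher log2 fold change when T863 was present, which for Pycard was 0.23. Among cell cycle genes and histones, the difference was 3.04 for the spindle gene Hmmr, 2.86 and 2.61 for the histones Hist1h3i and Hist1h3f, 2.21 for Cdkn2c and 1.42 for Mki67. Elsewhere it was 3.66 for Rasgrp3, 2.86 for the cyclooxygenase Ptgs1, 2.35 for Kctd12b, 1.86 for Arap3 and 1.36 for the checkpoint ligand Cd276. It was 1.33 for the chemokine receptor Ccr2, 1.11 for the inflammasome adaptor Pycard and 1.10 for Igfbp4. Without T863, some of these rest on few reads after stimulation: 2 for Rasgrp3, 7 for Ptgs1, 14 for Arap3 and 15 for Cd276. Among the cell cycle genes and histones, such counts were 8 for Hist1h3i, 11 for Hmmr and 19 for Cdkn2c.

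Among genes that rose, the difference was -2.31 for Acod1, which rests on 2 reads in M0, -2.08 for Cxcl2, -1.97 for Ccl5 (5 reads in M0), -1.87 for Ptges (8 reads in M0), -1.69 for Itgal, -1.63 for Nr1h3, -1.57 for Mmp14 and -1.40 for Klf4, all of which had smaller log2 fold changes with T863. Socs3 was the exception, with a difference of 1.67. Tfrc, which fell, had a difference of -1.21 and fell by more with T863.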

How the results depend on the processing

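The number of genes changed was 8615 and ranged from 8081 with DESeq2 to 9342 with scaling by library size, and was 7729 at an adjusted p under 0.01. It was 8186 to 8333 with 1 library left out. The number changed over 2-fold was 3782, and ranged from 3743 to 4463, or 2947 by a test against a 2-fold change. It was 3743 to 3812 with 1 library left out. The share of rises among the genes changed was 50.6%, and 49.4%, 38.2% and 25% with RLE, upper quartile and library size scaling. In these 3 fits 8497, 7566 and 6594 genes were called in the same direction as with TMM. With the replicate block, 8635 genes were changed, 3782 of them over 2-fold, and 2268 differed with T863. Deviations of libraries with the same number correlated at 0.0457, 0.00857 and 0.00368, so the numbers were not taken to pair the libraries. The number that differed with T863 was 2171, and 2128 with RLE factors, 2005 without a filter and 1590 with DESeq2. Of 3499 values of named genes under alternatives, 10 changed sign and 4 fell short of the threshold. With scaling by library size, the log2 fold change was -0.41 for Il10, -0.40 for Tpx2, -0.31 for Stat5a and -0.19 for mt-Co1, and with upper quartile factors -0.15 for Il10, -0.14 for Tpx2 and -0.04 for Stat5a. With 1 library left out it was -0.18 to 0.20 for Il10 (-0.18 without IFNγ + LPS replicate 1, -0.01 without M0 replicate 3) and -0.01 to 0.17 for Tpx2 (-0.01 without M0 replicate 3). Il10, Tpx2 and Stat5a were not called with TMM. Dgat1, Rps24 and Nfkbid with scaling by library size and mt-Co1 with upper quartile factors rose without passing the threshold. These scalings shift the median over all genes, by construction. Depth limits genes of few reads: 1 CPM was worth 4.75 to 7.51 reads, and fitted values of genes with 3 or fewer reads in a group depend on the prior count.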
